A study of Bos taurus with 20 samples.

Results

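The signal of 7 chemokine genes was followed in bovine neck muscle, namely CCL2, CCL8, CCL5, CXCL9, CXCL10, CXCL12 and CX3CL1. They were taken from the array by name, from the gene name or the symbol in the description of each probe. All 7 were found, with 1 probe each, among 21475 probes of which 16423 carried a gene name (14901 distinct names). CCL2 entered the set because its signal was known to be high in treated animals at day 0, so the values of the 7 genes in that comparison are given as a description, with no test.

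The muscle came from 10 cows, 5 control animals (K3, K6, K8, K9 and K10) and 5 treated animals (DE27, DE29, DE30, DE31 and DE32). The treatment was an oral daily dose of 0.4 mg dexamethasone (a synthetic glucocorticoid) over 31 days, with estradiol, an estrogen, injected into muscle 6 times at a weekly 5 mg for each animal. The agents were always given together, so their effects cannot be told apart, and the interval between the last dose and slaughter is not given in the sources used here. From each animal, muscle kept under vacuum at 4 °C was sampled at day 0 and day 14 of storage, giving 4 groups of 5 arrays, each 1-colour (cyanine 3). Age, breed and sex beyond "cows" are not given in the sources used here. Each sample is whole tissue, and fewer cells of a type and less RNA per cell cannot be told apart.

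Chemokines are small secreted proteins that steer the migration of leukocytes through G protein-coupled receptors. The CC group named here (CCL2, CCL5, CCL8) attracts mainly monocytes and T cells. CXCL9 and CXCL10 are induced by interferon gamma and attract activated T and NK cells through CXCR3. CXCL12 is made constitutively by stromal and endothelial cells and acts through CXCR4, while ACKR3 removes it from the surroundings. CX3CL1 is anchored in the membrane of endothelial and other cells and binds CX3CR1. In injured muscle, CCL2 is known from mice as a signal that brings monocytes in, and glucocorticoids are known to lower transcripts of many inflammatory chemokines in cultured immune cells. In the bovine RefSeq annotation (assembly ARS-UCD2.0), CCL2 and CCL8 lie on chromosome 19 with 1 gene, CCL11, between them, and CXCL9 and CXCL10 lie on chromosome 6 with 1 gene, ART3, between them.

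Values are log2 signals, scaled so that every array has the same 75th percentile. Testing required that a probe be well above background on 5 or more of 20 arrays, a condition met by 15438 probes. The 75th percentile of the raw processed signal was 654 to 945 at day 0 and 274 to 533 at day 14. Correlations between arrays of a group were 0.945 to 0.986. Of 12 listed skeletal muscle genes, 11 were on the array and all 11 were well above background on every array. No probe of the 7 chemokines was saturated, and CCL2, CCL5, CXCL10, CXCL12 and CX3CL1 were well above background on all 20 arrays. CCL8 was so on 16 arrays and CXCL9 on 5, the smallest number that the filter allows.

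CCL2, the main attractant of monocytes, stood higher in treated than in control animals on both days. At day 0 the control animals K3, K6, K8, K9 and K10 measured 8.89, 7.69, 5.99, 7.56 and 6.32. The treated animals DE27, DE29, DE30, DE31 and DE32 measured 9.23, 11.2, 10.56, 11.23 and 11.56. The lowest treated animal, DE27, lay above the highest control animal, K3, by a small margin, and the other 4 treated animals lay far above every control animal. The group means were 7.29 ± 1.16 in control animals and 10.75 ± 0.93 in treated animals (SD, n = 5 each). The difference was 3.46 ± 0.58 on the log2 scale (SE), which is 11.0-fold. Within the 3 slides that held both groups at day 0, the difference was 2.91, 4.11 and 2.91.

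At day 14 the control animals measured 7.05, 8.32, 8.16, 6.19 and 6.99 for CCL2, in the same order, and the treated animals 9.3, 8.82, 9.76, 10.15 and 11.68. Every treated animal again exceeded every control animal, and DE32 was the highest on both days. The means were 7.34 ± 0.89 and 9.94 ± 1.09 (SD, n = 5 each). The difference was 2.60 ± 0.54 (6.08-fold; 95% interval 1.41 to 3.79). With adjustment over all 15438 probes its limma adjusted p was 0.154, short of the threshold of 0.05, and from 0.139 to 0.278 when any 1 animal was left out. Few probes passed in that comparison at all, 11 probes or 0.0713% of those tested. Within the 3 slides that held both groups the difference was 0.74, 3.77 and 4.69. The day 14 arrays are other arrays of the same animals, so this is the same set of animals measured again.

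**Figure D1:**
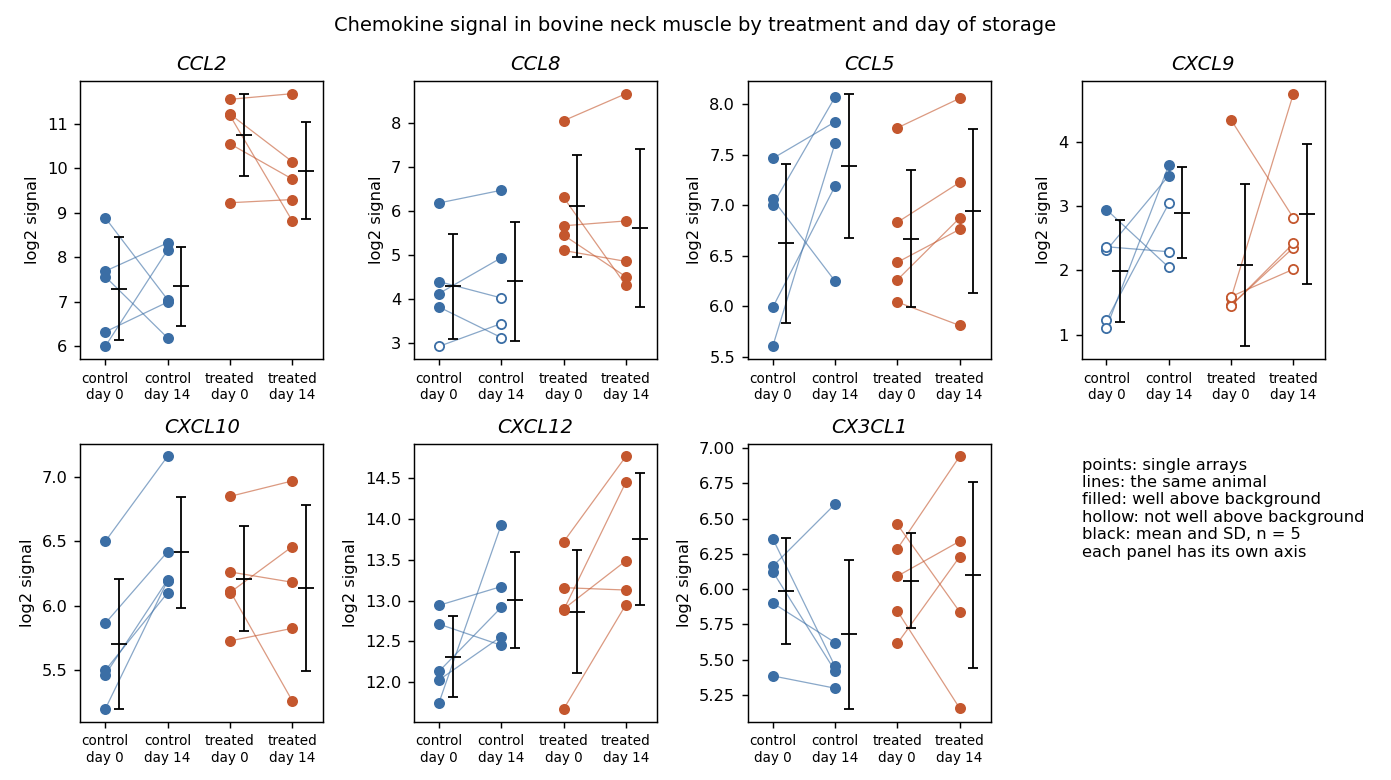
Log2 signal of each chemokine on each array, by group, with lines joining the arrays of 1 animal and the mean and SD of 5 beside them. For CCL2 the treated animals lie above the control animals on both days, and for the other 6 genes the groups overlap.

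CCL2 was the only 1 of the 7 genes whose treated and control values did not overlap at day 0, and again the only 1 at day 14. Over all tested probes, 5.82% did not overlap at day 0, 2.27% did not overlap at day 14, and 0.272% lay higher in treated animals without overlap on both days. CCL2 was chosen on its day 0 values, so nothing is read from its place among the shares that include day 0. In the test over all probes, 2.45% differed by treatment at day 0 (203 higher and 175 lower in treated animals). In the order of the 4 groups, treated animals at day 0 came first, then treated animals at day 14, control animals at day 14 and control animals at day 0. Of these neighbours, only treated animals at day 14 and control animals at day 14 differed by more than the larger SD of the pair.

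CCL8, which attracts monocytes, T cells and eosinophils, also had the higher mean in treated animals, with wide spread. At day 0 it measured 6.18, 4.40, 3.82, 4.13 and 2.93 in the control animals and 5.45, 5.67, 5.11, 6.31 and 8.05 in the treated animals. The control animal K3 reached into the range of the treated animals, and DE32 stood above all others. The probe was not well above background in K10. The difference was 1.83 ± 0.65 (SE), and 0.37, 1.73 and 2.53 within the slides that held both groups. After 14 days the control animals measured 6.47, 4.03, 3.13, 4.94 and 3.45, of which only K3 and K9 were well above background, and the treated animals 4.51, 5.78, 4.86, 4.31 and 8.67. K3 and DE32 were again the highest of their groups. The difference of 1.22 ± 0.85 (95% interval -0.63 to 3.08) did not pass (adjusted p = 0.646), and it was 1.12, -0.36 and 5.22 within slides. Without DE32 the CCL8 difference at day 14 was 0.46, and with normexp it was 0.54 at day 14 and 0.81 at day 0.

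CCL5, made mainly by activated T cells, NK cells and platelets, had a treated minus control difference close to 0 at day 0, 0.04 ± 0.41. The control animals spanned 5.60 to 7.46 and the treated animals 6.04 to 7.76. At day 14 the difference was -0.44 ± 0.43 (95% interval -1.38 to 0.49; adjusted p = 0.740).

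CXCL9 was at the edge of detection in this muscle. It was well above background in 1 control and 1 treated animal at day 0, and in 2 control animals and 1 treated animal at day 14. Its highest values were 4.35 in DE30 at day 0 and 4.75 in DE27 at day 14, both treated animals, and each was the only array of its group well above background. The size of its differences between groups is therefore not interpreted, here or where its values are listed below.

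CXCL10, from the same interferon gamma-induced pair, measured 5.86, 6.50, 5.50, 5.19 and 5.46 in the control animals at day 0 and 6.12, 6.10, 6.26, 5.72 and 6.85 in the treated animals. The groups overlapped, with a difference of 0.51 ± 0.27. After storage the control animals measured 6.42, 7.16, 6.10, 6.19 and 6.20 and the treated animals 5.26, 6.46, 6.18, 5.82 and 6.97. The difference had the other sign, -0.28 ± 0.32 (95% interval -0.98 to 0.43; adjusted p = 0.784).

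CXCL12 measured 12.13, 12.03, 11.75, 12.94 and 12.71 in control animals at day 0 and 13.16, 12.88, 12.90, 13.72 and 11.67 in treated animals. Only DE32 lay under the control range there, and the difference was 0.55 ± 0.36. After 14 days it was 0.75 ± 0.40 (95% interval -0.12 to 1.62; adjusted p = 0.550). For CX3CL1 the difference was 0.07 ± 0.22 at day 0 and 0.42 ± 0.34 at day 14 (95% interval -0.33 to 1.17; adjusted p = 0.692).

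**Figure D2:**
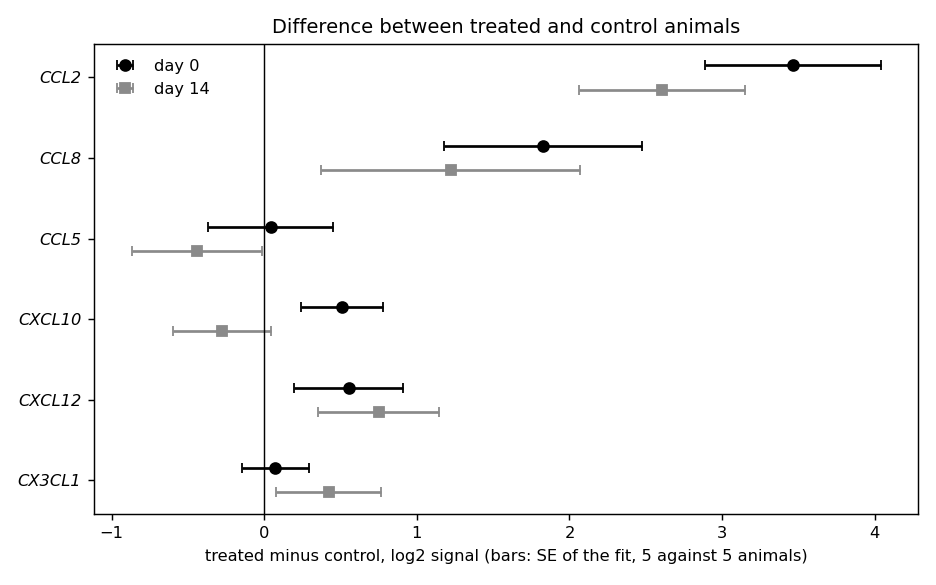
Treated minus control difference in log2 signal for the chemokines other than CXCL9 at day 0 (black circles) and day 14 (grey squares), with the SE of the fit as bars. CCL2 lies at 3.46 and 2.60, CCL8 at 1.83 and 1.22, and the other 4 genes lie within 0.75 of 0 on both days.

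Counted together, 7 of 7 genes had a difference above 0 at day 0 and 4 of 7 at day 14, with medians of 0.51 and 0.42. The medians over all tested probes were -0.01 and 0.05. The counts include CCL2, chosen for its day 0 difference, and CXCL9, measured on few arrays. At day 0 leaving out single animals turned the sign of 3 genes, CCL5 (-0.23 to 0.25), CX3CL1 (-0.077 to 0.18) and CXCL9. In the authors' deposited table CX3CL1 (-0.0995) and CXCL9 also lay below 0 at day 0. None of the 7 passed at day 14, where limma found 1613 probes at an unadjusted p under 0.05.

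Storage was examined next, as day 14 minus day 0 within each treatment. Many probes moved: 39.2% of the tested probes passed in control animals and 29.7% in treated animals. Most arrays of the 2 days lay on different slides, and only slides 5 and 6 held both days of 1 treatment. With the slide as a block, the storage change of treated animals therefore rests on slide 5, where DE32 had both days. That of control animals rests on slide 6, with K10 at day 0 and K3 and K8 at day 14. These fits leave 1 array in a group, so no calls are counted from them. None of the 7 chemokines passed in the fit without the animal as block. The median of all tested probes moved by 0.09 in control animals and 0.11 in treated animals. The 6037 probes too dim to be tested moved by medians of 0.81 and 0.90. Rises of probes with low signal therefore cannot be read against the tested probes alone.

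CXCL10 was higher at day 14 than at day 0 in 5 of 5 control animals, by 0.56, 0.66, 0.60, 0.9997 and 0.74 in K3, K6, K8, K9 and K10. Over all tested probes, 22.7% were higher in every control animal. The mean change was 0.71 ± 0.28 (SE; 1.64-fold), with an adjusted p of 0.0605. Within the 3 dates of image extraction, as the file headers give them, the change was 0.98, 0.85 and 0.80. With the animal as block the SE was 0.16 and the adjusted p 0.0156, in a fit in which 35.6% of all tested probes passed. In the treated animals CXCL10 changed by -0.86, 0.36, -0.08, 0.10 and 0.12 in DE27, DE29, DE30, DE31 and DE32, a mean of -0.07 ± 0.31 (adjusted p = 0.880). The change in every control animal exceeded that in every treated animal, which held for 0.557% of the tested probes in 1 direction or the other. The difference between the changes was -0.78 ± 0.43 (95% interval -1.69 to 0.12). Another background correction (normexp) turned the sign in treated animals, to 0.75 with an adjusted p of 0.0116. Under it 8810 of 15438 tested probes passed in treated animals. Control animals had 1.01 there, and the difference between the changes was -0.25. The difference did not pass with adjustment over all probes (limma adjusted p = 0.99998), nor in per-animal changes, where the unadjusted p was 0.0102 and the adjusted p 0.996. In that comparison 0.0% of the probes passed in either fit, while 541 had an unadjusted p under 0.05.

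CXCL12 had a higher mean at day 14 in both treatments and passed only in treated animals, with the animal as block. In control animals the change was 0.69 ± 0.31 (adjusted p = 0.0982), higher in 4 of 5 animals, from -0.26 in K10 to 2.18 in K8. In treated animals it was 0.89 ± 0.43 (adjusted p = 0.140), with -0.03, 1.57, 0.59, 1.04 and 1.28 in DE27, DE29, DE30, DE31 and DE32. With the animal as block the SE in treated animals was 0.26 and the adjusted p 0.0423, where 25.9% of all tested probes passed. CXCL12 was thus the only 1 of the 7 that passed in treated animals under that block, and CXCL10 the only 1 in control animals. Markers of cells known to make CXCL12 moved over the same storage. Of 10 endothelial genes, 7 passed as higher at day 14 in control animals and 4 in treated animals, while of 8 fibroblast genes 4 passed as lower in each. Over all tested probes, 39.2% passed in control animals and 29.7% in treated animals, in either direction. The summed endothelial log2 level spanned 12.91 to 13.29 in control animals at day 0 and 13.39 to 14.8 at day 14. Their part in the CXCL12 values was not tested. Within the 2 dates of image extraction that held both days of treated animals, the CXCL12 change was 0.91 and 0.97.

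CCL2 itself showed no common direction over storage. In control animals the change was -1.84, 0.64, 2.17, -1.38 and 0.67 in K3, K6, K8, K9 and K10, a mean of 0.05 ± 0.56 (adjusted p = 0.951). In treated animals it was 0.07, -2.38, -0.79, -1.07 and 0.13 in DE27, DE29, DE30, DE31 and DE32, a mean of -0.81 ± 0.55 (95% interval -2.01 to 0.40; adjusted p = 0.290). Within dates of image extraction the treated animals' change was -2.14 and -0.58. The treated arrays of day 0 were among those for which the gene was chosen as high. The change in treated minus control animals was -0.86 ± 0.84 (95% interval -2.62 to 0.90).

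CCL8 changed by 0.11 ± 0.69 in control animals and by -0.49 ± 0.81 in treated animals, and CX3CL1 by -0.31 ± 0.27 and 0.04 ± 0.31. CCL5 changed by 0.77 ± 0.42 in control animals (adjusted p = 0.163), higher in 4 of 5, and by 0.28 ± 0.42 in treated animals (adjusted p = 0.644), higher in 4 of 5. T and NK cell markers stood beside it, with 7 of 9 tested genes above 0 in control animals, of which 2 passed, and 7 of 9 in treated animals, of which none passed. The shares of all tested probes that passed were 39.2% in control animals and 29.7% in treated animals. The part of T and NK cells in the CCL5 values was not tested. The storage change of CXCL9 is likewise not interpreted. The 6037 probes too dim to be tested had median changes of 0.81 in control animals and 0.90 in treated animals, and 95.5% and 97.0% of them lay above 0.

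**Figure D3:**
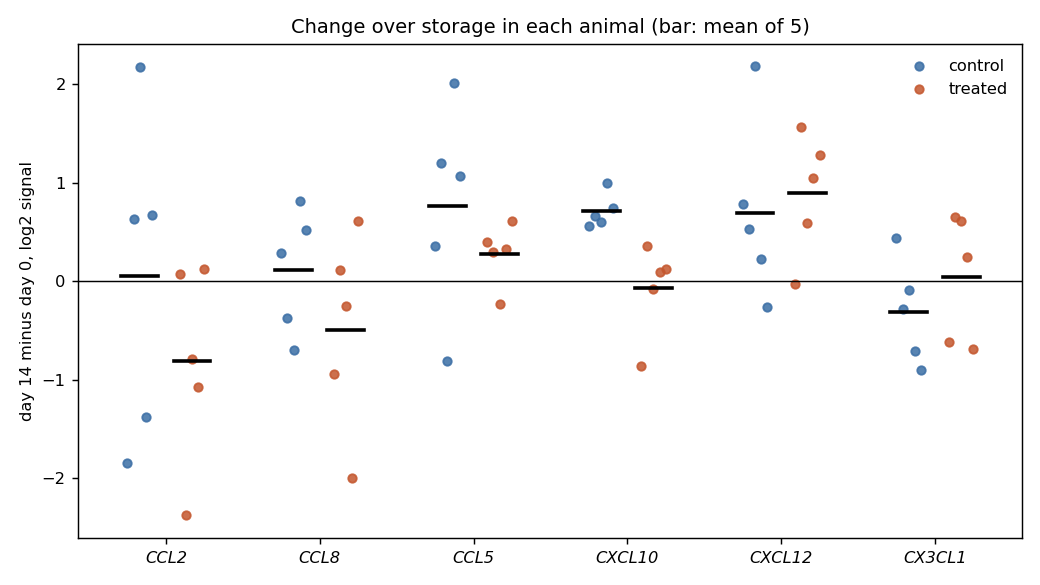
Day 14 minus day 0 in log2 signal for each animal and the chemokines other than CXCL9, control animals in blue and treated animals in orange, with bars at the mean of 5. The CXCL10 changes of control animals, 0.558 to 0.9997, lie above those of treated animals, and CCL2 changes scatter on both sides of 0.

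Whether an animal high at day 0 was also high at day 14 was examined for each gene, as the correlation over the 10 animals of the deviations from their group means. In all, 7 relations were computed, with exact permutation tests within treatments (14400 pairings, two-sided). For CCL8, Pearson's r was 0.854 (exact permutation p = 0.0135; adjusted p = 0.0474) and Spearman's rho 0.515 (exact permutation p = 0.164; adjusted p = 0.444). For CXCL10, r was 0.772 (exact permutation p = 0.0131; adjusted p = 0.0474) and rho 0.673 (exact permutation p = 0.0254; adjusted p = 0.178). Without the 2 animals farthest from the median at day 0, r fell to 0.206 for CCL8 and 0.261 for CXCL10 (8 animals). Both relations therefore rest on 2 animals, K3 and DE32 for CCL8, and K6 and DE32 for CXCL10. For CCL2 r was 0.106 (exact permutation p = 0.766), and the other 4 genes had r from -0.218 to 0.461 with adjusted p of 0.479 or more. The slides held too few animals for values within slides.

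**Figure D4:**
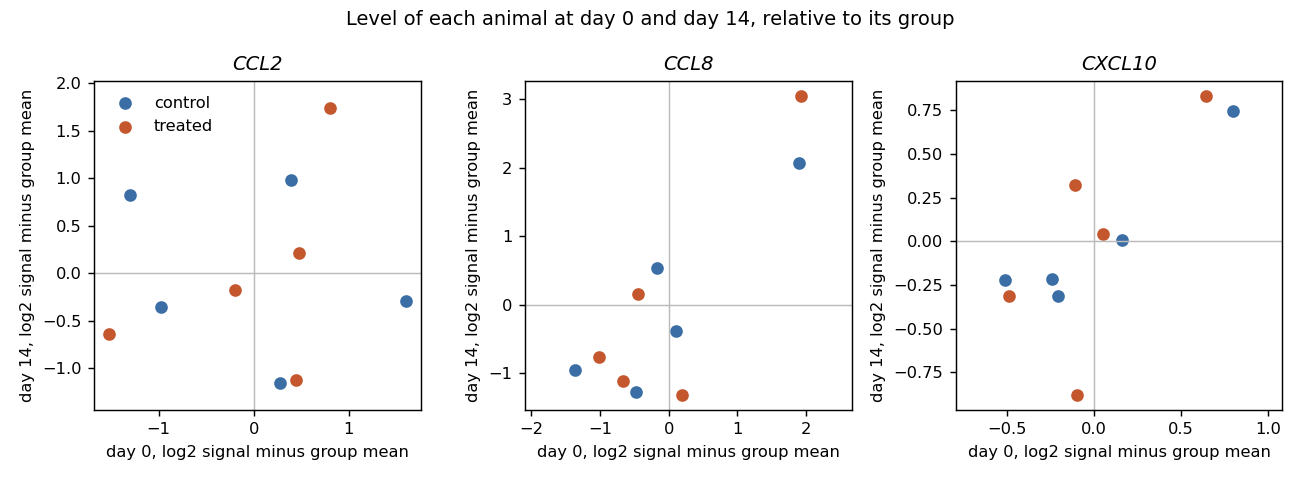
Deviation of each animal from its group mean at day 0 (x axis) and day 14 (y axis), in log2 signal, for CCL2, CCL8 and CXCL10. For CCL8 and CXCL10 the points at the upper right are 1 control and 1 treated animal, and the other 8 points give r of 0.206 and 0.261.

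Of 30 other chemokines listed, 24 were on the array and 14 were tested. At day 0, 7 lay above 0 and 7 below, with a median of 0.06, and 2 passed. CCL24, an attractant of eosinophils, rose in treated animals. It measured 8.29, 6.52, 8.29, 7.47 and 7.62 in the control animals and 9.72, 9.31, 10.05, 8.73 and 9.60 in the treated animals. The groups did not overlap, and the difference was 1.85 ± 0.35 (3.60-fold; adjusted p = 0.0247). Its call was lost when any 1 of K9, K10, DE29, DE30 and DE32 was left out, with an adjusted p of up to 0.0700, and with the slide as block (0.0707). At day 14 the difference was 1.09 ± 0.38 (adjusted p = 0.378).

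CXCL14, a chemokine of epithelia and connective tissue, fell in treated animals at day 0. It measured 9.71, 8.88, 9.80, 10.0 and 9.36 in the control animals and 8.33, 7.99, 7.98, 8.74 and 7.16 in the treated animals. The groups did not overlap, and the difference was -1.51 ± 0.30 (adjusted p = 0.0270), with the call lost when any 1 of 6 animals (K3, K8, K9, K10, DE29 and DE30) was left out. At day 14 the groups again did not overlap, but the difference of -1.53 ± 0.33 did not pass (adjusted p = 0.177). The day 0 and day 14 samples are of the same animals.

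Over storage, CCL3, which attracts monocytes and T cells through CCR1, rose in control animals by 0.998 ± 0.23 (adjusted p = 0.00727) and in treated animals by 1.37 ± 0.21 (adjusted p = 0.00128). Both calls held whichever animal was left out, and the slide as block, with 1 array in a group, cannot test them. XCL1, a chemokine of T and NK cells, rose by 0.83 ± 0.27 and 0.84 ± 0.26 (adjusted p = 0.0322 and 0.0312). In control animals CXCL14 fell by 0.91 ± 0.28 (adjusted p = 0.0247) and CCL28, a mucosal chemokine, by 1.16 ± 0.40 (adjusted p = 0.0378). The CCL28 probe was well above background on 9 of 20 arrays, but not in any control animal at day 14. The size of its fall is therefore not firmly measured. In treated animals CCL25, known from thymus and gut, rose by 0.62 ± 0.20 (adjusted p = 0.0331). The calls of XCL1, CXCL14, CCL28 and CCL25 were each lost without any of 3 or 4 single animals. With the animal as block, XCL1 and CXCL14 no longer passed in control animals (adjusted p = 0.0744 and 0.0632). XCL1, CCL28 and CCL25 also lost theirs with the authors' deposited table of processed values, XCL1 and CCL25 with quantile scaling, CCL25 with median centring, and CCL28 with normexp, where its sign turned (0.77). In all, 2 of the 14 passed as higher and 2 as lower in control animals, and 3 as higher in treated animals. Over all tested probes, 39.2% passed in control animals and 29.7% in treated animals. Nothing about chemokines as a group is read from these counts.

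**Figure D5:**
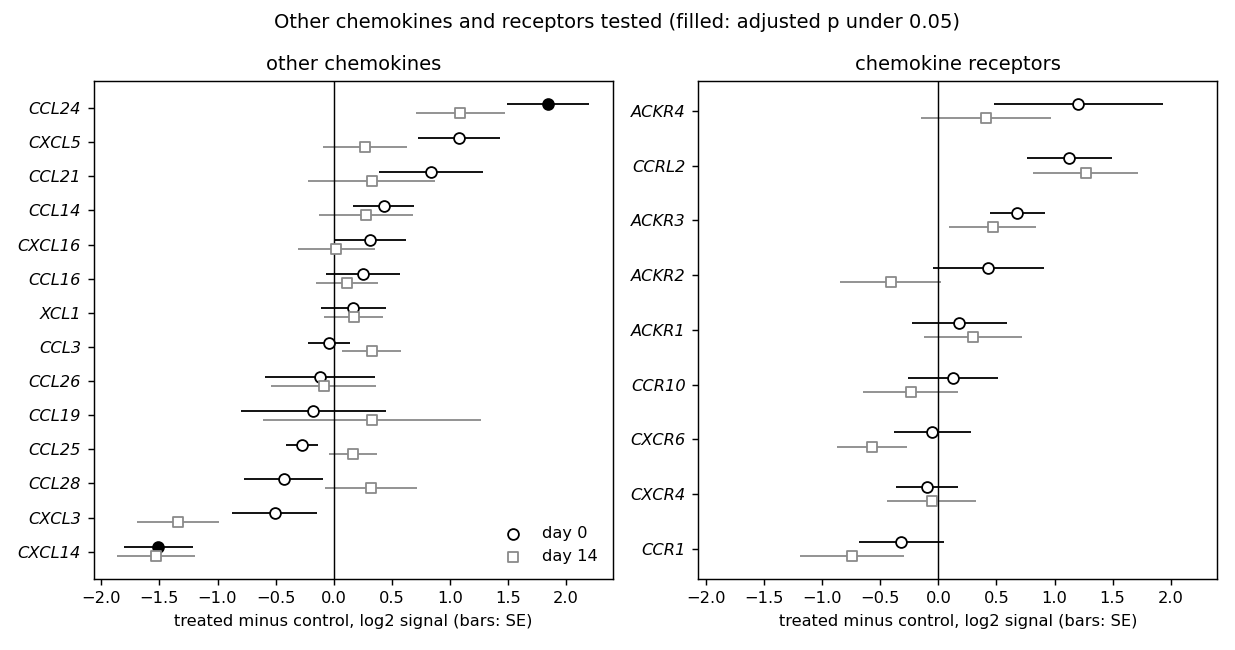
Treated minus control difference in log2 signal for the 14 other chemokines and 9 receptors tested, at day 0 (circles) and day 14 (squares), with SE as bars and filled symbols where the adjusted p was under 0.05. Only CCL24 at 1.85 and CXCL14 at -1.51, both at day 0, are filled.

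The receptors that bind these chemokines were mostly not measurable. The probe of CCR2, the receptor of CCL2, was well above background on 2 of 20 arrays, CX3CR1 (CX3CL1) on 1 and CXCR3 (CXCL9, CXCL10) on 0. CXCR4, the receptor of CXCL12, differed by -0.10 ± 0.27 at day 0 and by -0.06 ± 0.38 at day 14 (adjusted p = 0.887 and 0.969). A second, dimmer CXCR4 probe, well above background on 10 arrays, disagreed, with 0.55 ± 0.44 and 0.02 ± 0.57. It passed over storage of control animals (1.60 ± 0.56; adjusted p = 0.0412), where the brighter probe had -0.03 ± 0.33. ACKR3, which takes up CXCL12, differed by 0.68 ± 0.23 and 0.47 ± 0.37 (adjusted p = 0.161 and 0.686). Of 23 listed receptors, 22 were on the array and 9 were tested, and none passed for treatment on either day. Their median difference was 0.18 at day 0 and -0.06 at day 14. In storage, counting the brightest probe of each gene, 1 passed, CXCR6, the receptor of CXCL16. Over all tested probes, 39.2% passed in control animals and 29.7% in treated animals. CXCR6 rose by 1.11 ± 0.22 in control animals (adjusted p = 0.00372), and this held whichever animal was left out. Its probe was dim, with a mean of 3.96 in control animals at day 0, and well above background on 17 of 20 arrays. Probes too dim to be tested rose by a median of 0.81 in control animals, so the size of the CXCR6 rise is not firmly measured. The slide as block, with 1 array in a group, cannot test this rise.

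Genes of interferon gamma and NF-kB signalling, which induce several of these chemokines, were examined from a list of 19, of which 15 were tested. At day 0, 9 lay above 0 and 6 below, with a median of 0.18, and 1 passed. NFKBIA, the inhibitor that holds NF-kB in the cytoplasm, fell in treated animals by 1.47 ± 0.23 (adjusted p = 0.0134), and this held whichever animal was left out and with the slide as block. None passed at day 14. In storage of control animals 3 passed as higher and 2 as lower, where 39.2% of all tested probes passed. IRF1, a transcription factor induced by interferon gamma, rose by 1.29 ± 0.42 (adjusted p = 0.0321), TNFRSF1A, a receptor of TNF, by 0.73 ± 0.23 (adjusted p = 0.0253), and JAK1, a kinase of cytokine receptors, fell by 0.59 ± 0.18 (adjusted p = 0.0225). In treated animals JAK1 fell by 0.80 ± 0.18 (adjusted p = 0.00728), where 29.7% of all tested probes passed. The slide as block, with 1 array in a group over storage, cannot test these storage calls. Those in control animals were each lost without any of 3 single animals, and that of TNFRSF1A with the animal as block (adjusted p = 0.0557).

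Markers of the leukocytes that chemokines attract were set beside CCL2 and CCL8. Of 15 monocyte and macrophage genes, 10 cleared the background on all 20 arrays, and ITGAM on none. At day 0, 12 of 14 tested genes lay above 0 in treated animals, with a median of 0.20, and 0 passed. Their summed log2 level spanned 12.05 to 13.55 in control animals and 12.37 to 13.56 in treated animals. At day 14, 3 of 14 lay above 0, with a median of -0.24, none passed, and the sums spanned 12.01 to 13.94 and 12.22 to 13.73. Of 6 tested granulocyte and mast cell genes, 2 lay above 0 at day 0, with summed levels of 8.47 to 8.96 and 8.15 to 8.97. T and NK cell genes lay below 0 in 8 of 9 at day 0 and in 9 of 9 at day 14, none passing, with sums of 8.80 to 10.16 and 9.04 to 9.41 at day 0; CD5 and GZMA were above background on no array. Of 3 tested B cell genes, 1 lay above 0 at day 0.

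Of the endothelial genes, 10 of 10 lay above 0 for treatment at day 0, with a median of 0.31, and none passed. Their summed level spanned 12.91 to 13.29 in control animals and 13.37 to 14.04 in treated animals, without overlap. At day 14, 5 of 10 lay above 0, and the sums overlapped, 13.39 to 14.8 against 13.97 to 14.94. Fibroblast genes lay above 0 in 5 of 8 at day 0, with sums of 14.91 to 16.05 and 14.8 to 16.12, and in 0 of 8 at day 14. The part of these cells in the CCL2 and CCL8 values was not tested.

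The genes whose signal ran most like that of CCL2 over the 20 arrays were sought among 11383 genes, as a description that includes the group differences. They were FBXW9 (r = 0.838), RND2 (0.825), PARP11 (0.808), METTL21E (0.796) and SCLT1 (0.791). Taken as deviations from the group means, the same correlations were 0.330, 0.174, 0.0819, 0.177 and 0.143, so the likeness lay mostly in the differences between groups. METTL21E, a muscle methyltransferase gene, was higher by 2.23 at day 0 and by 1.57 at day 14 in treated animals.

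For CCL8 the most alike were GINS2 (r = 0.813) and TYRP1 (0.793), and here the correlations of the deviations were 0.839 and 0.765. For CCL5 they were UBD (0.749) and PRF1 (0.734), the gene of perforin in cytotoxic lymphocytes, with 0.746 and 0.711 for the deviations. CXCL10 ran most like PSRC1 (0.780) and LIX1 (0.780), CXCL12 like BTC (0.794) and PGLYRP4 (0.788), CX3CL1 like KCNJ15 (0.729) and SCNM1 (0.702), and CXCL9 like UBQLN4 (0.740) and SCAP (0.730). All genes were read on the same 20 arrays and so share slides and scaling.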

How the data were processed

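Total RNA of 20 muscle samples was hybridised to 1-colour Agilent bovine arrays. Per the file headers, the deposited scanner files hold spot intensity from Feature Extraction 9.5.1.1, background-subtracted and detrended, and the authors combined scans at a high and a low sensitivity. The authors also deposited a table of processed intensity values, made with R 2.11.1 per the submitters' processing notes; how it was normalized between arrays is not given in the sources used here. It ranks probes like the scanner files (Spearman 0.978 to 0.998).

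Of 42990 spots per array without controls, 935 over all arrays carried outlier marks and were dropped. Spots of a probe were averaged, log2 taken and each array scaled on its 75th percentile. Probes well above background on at least 5 arrays (15438) were tested with limma 3.58.1 in R 4.3.3 with Benjamini-Hochberg adjustment (threshold 0.05), per comparison. The fit was tested on simulated data. The number of arrays limits the precision, and no depth applies.

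Names came from accessions, gene numbers or symbols of the files, updated through RefSeq (268 probes with conflicting names and 4784 others stayed unnamed). The brightest probe stood for a gene. Groups come from the sample titles and the treatment and day labels; the free-text description gives day 0 for all control and day 14 for all treated samples and was not used, and 1 title reads D31 where the number is that of DE31.

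The same animal gave both days, which pairs the arrays. Their deviations from group means correlated from -0.147 to 0.281 within animals, and 5 of 10 animals correlated best with themselves. The members and gene lists were chosen with earlier results of these data known. Named are the 7 members, up to 4 passing genes per list and comparison, chosen receptors, and the genes most like each member; some listed genes are not reported here. Alternatives were normexp background correction (offset 50), quantile and median scaling, other filters, the authors' table, slide and animal blocks, and leaving out each animal.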

Additional observations from a re-analysis of the deposited data

Results flagged for a closer look

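In 28 combinations of gene and group, 2 had 1 animal far from the other 4, and chance alone marks about 1 in 20. CXCL9 at day 0 in treated animals measured 4.35 in DE30, where the next value was 1.59. CX3CL1 at day 14 in control animals measured 6.60 in K3, where the next value was 5.62. No explanation was weighed.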

How the results depend on the processing

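CCL2 kept its direction for treatment in every alternative run, from 3.14 to 3.86 at day 0 and from 1.87 to 2.92 at day 14, where it passed in none. The number of probes passing moved by over 1.5 times in these cases. At day 0 (378) it was 231 without a filter and 135 to 312 without single animals. At day 14 (11) it was 1 with normexp, 7 with probes above background on every array, 0 with the slide block and 0 to 12 without single animals. Storage in control animals (6045) gave 183 with the slide block and 3214 to 6655 without single animals. Storage in treated animals (4586) gave 8810 with normexp, 8723 without a filter and 2441 to 5703 without single animals. The slide block is left out of these storage counts, because it leaves 1 array in a group there. Of the 7 chemokines, 0 passed in storage of control animals, against 3 with normexp (CCL5, CXCL9, CXCL10), 1 with probes above background on every array, 1 with the animal as replicate block and 0 to 1 without single animals (CXCL10 without K6, CXCL9 without K8). In treated animals 0 passed, against 4 with normexp (CCL5, CXCL9, CXCL10, CX3CL1) and 1 with the animal as replicate block. The block changed no other call of the 7. Under normexp, 6726 of 15438 tested probes passed in control animals and 8810 in treated animals, beside which these member counts are to be read.

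Differences close to 0 changed sign, and so did some larger ones. The larger ones included the storage change of CCL28 in control animals, given above as -1.16. They also included those of CCL2 and CCL8 in treated animals, given above as -0.81 and -0.49. At day 14, CXCL9 was 0.26 with normexp, 0.12 with quantile scaling and -0.50 to 0.19 without single animals, CXCL10 was 0.064 with normexp, and CXCR4 was 0.12 with normexp and -0.34 to 0.15 without single animals (-0.33 to 0.042 at day 0). In storage of control animals, CX3CL1 was 0.59 and CCL28 0.77 with normexp; CCL2 was -0.081 with quantile scaling, -0.026 with median centring, -0.047 in the authors' table and -0.48 to 0.52 without single animals; CCL8 was -0.22 with quantile scaling, -0.010 in the authors' table and -0.065 to 0.31 without single animals, and CXCL9 -0.14 in that table. In storage of treated animals, normexp gave 0.79 for CCL8 and 0.75 for CXCL10. CX3CL1 was -0.24 with quantile scaling, -0.045 with median centring, -0.059 in the authors' table and -0.11 to 0.22 without single animals. The slide block, which here gives the change of DE32 alone, gave 0.13 for CCL2, 0.61 for CCL8, 0.12 for CXCL10 and -0.69 for CX3CL1. CXCL10 spanned -0.18 to 0.12 without single animals. In the difference between storage changes, CXCL9 was 0.091 with normexp, 0.039 with quantile scaling, 0.14 in the authors' table and -0.72 to 0.46 without single animals, and CXCL12 spanned -0.040 to 0.57. The causes were not tested. Each of the 7 genes has 1 probe, so no other probe could be used.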
